A study of Mus musculus with 16 samples.

Results

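The 6 genes described here were Elane, Mpo, Prtn3, Ctsg and Prss57, which encode proteins of the azurophil granule of neutrophils, and Ms4a3, a gene of granulocyte and monocyte progenitors. They were chosen by symbol, with earlier results of these data known. Each is 1 row of the 32286 gene features counted in every bone marrow (BM) library. The study asked how a bromodomain (BRD) inhibitor of the histone acetyltransferases CBP and P300, IACS-70654, acts on mammary tumors rich in neutrophils and on the marrow of their hosts. Of 16 samples, 12 were single-cell 3′ RNA libraries of marrow. Each of 2 sorts, DAPI- CD45+ Ter119- marrow (the CD45+ sort) and Lin- c-Kit+ CD45+ progenitors (the c-Kit+ sort), was profiled in 3 groups with 2 libraries each. All mice were female wild-type BALB/c animals. The group labelled ctrl (WT below) carried no tumor and had no treatment. The vehicle group carried the Trp53-null mammary tumor 2208L, transplanted as a piece from a frozen tumor bank into the mammary fat pad, and received the oral vehicle. The IACS-70654 group carried the same tumor and received IACS-70654 by mouth, in cycles of 3 days on and 2 days off. The series' design text gives 7 days of treatment and pools of 3 mice per group, and the study describes a marrow course that was 1 day shorter. The 2208L line is a single tumor line, so vehicle against WT compares hosts with this tumor and vehicle dosing with hosts that had neither. Nothing in the labels says that the 2 libraries of a group came from different pools, so p-values may measure only technical spread.

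Azurophil granules are the first granules that a neutrophil precursor makes. Neutrophil elastase (Elane), proteinase 3 (Prtn3), cathepsin G (Ctsg) and the serine protease NSP4 (Prss57) are packed into them with myeloperoxidase (Mpo), the heme enzyme that makes hypochlorous acid. Their transcription starts in granulocyte-monocyte progenitors (GMPs), peaks in promyelocytes, the stage called proNeu in mouse marrow, and is shut off as cells pass through the proliferating preNeu stage to immature and mature neutrophils, which keep the proteins but make no more of them. Ms4a3 encodes a 4-span membrane protein of the same progenitors, and its promoter is used to trace cells that descend from GMPs.

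Elane and Prtn3 stood side by side on mouse chromosome 10 with Prss57 nearby. On mm10, Prss57 (ENSMUSG00000020323) was annotated at chr10:79781474-79790961 on the minus strand, Prtn3 (ENSMUSG00000057729) at chr10:79874476-79883174 and Elane (ENSMUSG00000020125) at chr10:79886247-79888215, both on the plus strand. Mpo (ENSMUSG00000009350) was at chr11:87793581-87804413 on the plus strand, Ctsg (ENSMUSG00000040314) at chr14:56099881-56102574 on the minus strand and Ms4a3 (ENSMUSG00000024681) at chr19:11629496-11640851 on the minus strand. Because several of these genes moved together, the 150 bases before the RefSeq start sites of 5 of them are shown, on GRCm38.p6. The gene intervals above are those of GENCODE, whose outermost starts differ from the RefSeq ones for Elane, Prtn3 and Mpo, so that the Prtn3 and Mpo windows lie inside their intervals and the Elane window runs past the start printed above. No window was at hand for Prss57. Capitals mark every match, on either strand, to letters bound by factors of granulocyte progenitors: PU.1 as GAGGAA, Myb as AACNG, Runx as TGTGGT and C/EBP as TTNNGNAA.
Elane: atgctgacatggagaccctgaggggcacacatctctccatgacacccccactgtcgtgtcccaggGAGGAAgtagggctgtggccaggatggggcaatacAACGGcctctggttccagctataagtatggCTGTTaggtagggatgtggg
Prtn3: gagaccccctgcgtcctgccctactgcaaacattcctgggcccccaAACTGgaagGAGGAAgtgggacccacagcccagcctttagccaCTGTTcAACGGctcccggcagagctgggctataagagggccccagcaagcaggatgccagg
Mpo: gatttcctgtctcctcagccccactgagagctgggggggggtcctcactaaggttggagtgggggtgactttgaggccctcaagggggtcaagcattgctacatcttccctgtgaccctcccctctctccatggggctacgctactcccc
Ctsg: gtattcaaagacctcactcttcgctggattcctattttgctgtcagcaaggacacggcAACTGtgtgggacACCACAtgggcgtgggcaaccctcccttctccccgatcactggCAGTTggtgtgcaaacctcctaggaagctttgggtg
Ms4a3: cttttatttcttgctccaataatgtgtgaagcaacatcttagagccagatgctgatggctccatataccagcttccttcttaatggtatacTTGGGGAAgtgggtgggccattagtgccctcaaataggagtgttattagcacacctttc
These windows lay at chr10:79886162-79886311 (Elane), chr10:79879517-79879666 (Prtn3), chr11:87793634-87793783 (Mpo), chr14:56102575-56102724 on the minus strand (Ctsg) and chr19:11640852-11641001 on the minus strand (Ms4a3). The Elane and Prtn3 windows both held 1 PU.1 match, at 85 and 95 bases before the start, with 2 and 3 Myb matches downstream or just upstream of it. The Ctsg window held 2 Myb matches and 1 Runx match, the Ms4a3 window 1 C/EBP match, and the Mpo window none of the 4. Over all 32851 windows of this length, 14.5% held the PU.1 letters, 55.1% the Myb letters, 8.4% the Runx letters and 22.7% the C/EBP letters, so that Myb letters in particular are common.

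The CD45+ libraries held 27816638 to 54510172 UMIs and the c-Kit+ libraries 27427163 to 68415534 UMIs. Cells were clustered with the 6 genes kept out of the variable genes, and clusters were named from marker lists that held none of them. Levels are given as CPM, the share of a gene in all UMIs of a class in a library on the usual per-million scale, and because the libraries read 3′ ends, levels are compared between samples and stages and not between genes. A gene was called changed at an adjusted p under 0.01 (edgeR quasi-likelihood test on summed UMIs of the 2 against 2 libraries) with a log2 change over 0.5 in size. In sums over a class, fewer cells that make a transcript and less of it per cell cannot be told apart. These abundant transcripts had a level in every class, also where no cell should make them: B cells of the CD45+ sort held 77.6 to 509 CPM of Elane and 26.3 to 165 CPM of Ctsg, and erythroid progenitors of the c-Kit+ sort held 232 to 374 CPM of Elane. These 2 classes are used below as the background of their sorts. They differ in depth per cell from the classes set beside them, and these comparisons do not match depth. Whether this level came from free RNA or from mixed droplets was not tested.

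All 6 genes were far higher in late GMPs than in hematopoietic stem cells (HSCs) in every c-Kit+ library, and far lower in immature neutrophils than in proNeu in every CD45+ library. In HSCs, Elane was at 218 and 188 CPM in the WT libraries, 277 and 248 CPM in the vehicle libraries and 246 and 286 CPM in the IACS-70654 libraries, which was 0.741 to 1.01 times the erythroid level of the same library. Elane in HSCs thus did not stand above its background, whereas Prtn3 in HSCs was 1.60 to 2.15 times the erythroid level. HSCs were shallower, with a median of 3560 UMIs per cell against 4390 to 19130 in the erythroid clusters. The Prtn3 ratio therefore does not by itself show a level above background. From HSC to multipotent progenitors (MPPs), Ctsg was 2.55 to 4.49 times higher and Mpo 1.91 to 3.82 times higher, while the Elane ratio was 0.953 to 2.05. The next step, to a cluster between MPPs and GMPs, was 5.00 to 10.9 times for Elane and 3.69 to 6.71 times for Ms4a3. From there to late GMPs it was 2.66 to 4.41 and 2.49 to 3.99 times. Elane in MPPs was itself close to its background, so its ratio from MPPs is a lower bound. In the class called late GMP or proNeu, Elane stood 27.2 to 43.7 times above HSCs, Ms4a3 19.7 to 38.2 times, Ctsg 18.9 to 31.3 times and Mpo 10.0 to 16.7 times. The HSC levels of Ms4a3 (0.819 to 1.45 times the erythroid level), Ctsg (0.825 to 1.42 times) and Mpo (0.974 to 1.48 times) were also near the background, so these folds, and those from HSCs to MPPs for Ctsg and Mpo, are lower bounds as that of Elane is.

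**Figure D1:**
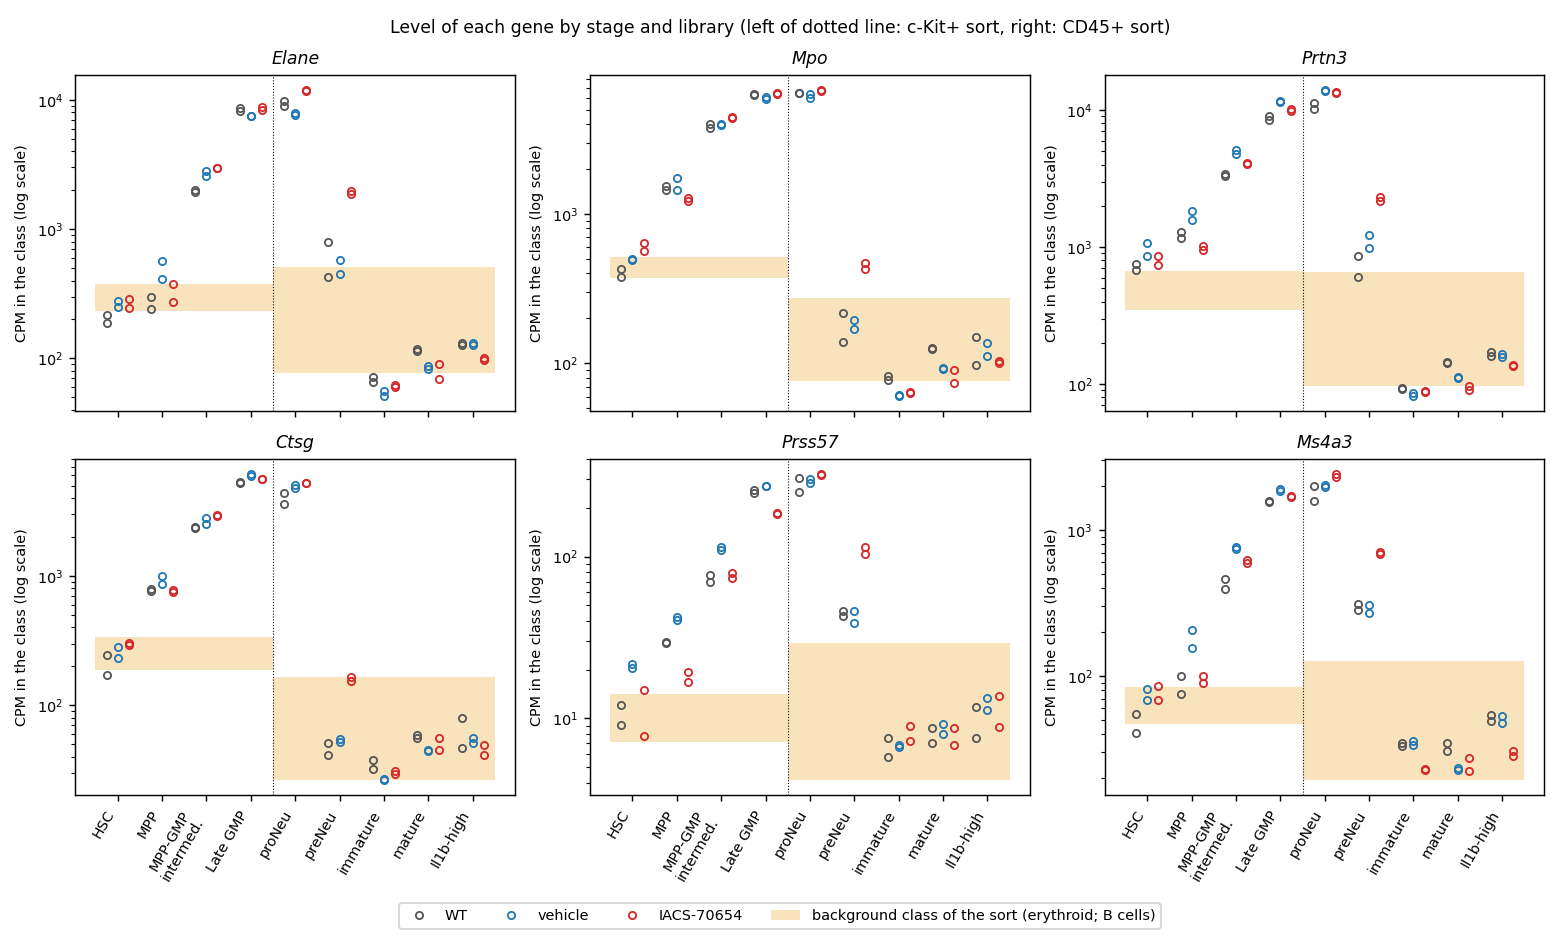
CPM of each gene (log axis) by stage, 1 open circle per library, for WT, vehicle and IACS-70654; the shaded band is the range of the background class of each sort (erythroid progenitors left of the dotted line, B cells right of it). All 6 genes rise from HSCs to late GMPs and fall after proNeu, and the IACS-70654 circles stand apart from both other groups at preNeu.

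The drop from proNeu to preNeu differed in size between the genes. From proNeu to preNeu, Ctsg was 32.0 to 96.5 times lower, although its preNeu level was not above that of B cells in 2 of 6 libraries, and Mpo 14.5 to 46.0 times lower, Elane 6.08 to 20.8 times, Prtn3 5.67 to 16.8 times, and Ms4a3 and Prss57 only 3.35 to 7.29 and 2.80 to 7.29 times. Accordingly, for each 100 UMIs of Elane there were 40.3 to 65.5 UMIs of Ctsg in proNeu but 6.4 to 11.6 in preNeu, against 15 to 59.7 in B cells. Ms4a3 moved the other way, from 17.6 to 25.8 UMIs per 100 of Elane in proNeu to 35.7 to 65.9 in preNeu. In immature neutrophils Elane was at 51.0 to 71.5 CPM in the 6 libraries, 136 to 199 times below proNeu and below the B cells of every library, at 0.118 to 0.848 times their level. Mature neutrophils held 69.5 to 118 CPM of Elane.

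Across all 135 sums of a class in a library, Prtn3 and Elane followed each other most closely of all pairs of members, with r = 0.967, and Mpo and Ctsg with r = 0.962. The weakest pair was Ctsg and Prss57, with r = 0.747. The sums share libraries and depth, so these values are descriptions. Among other genes, those most like the mean profile of the members were Gstm1 (r = 0.898), a glutathione transferase, Dbi (r = 0.896), an acyl-CoA binding protein, and Gatm (r = 0.873), the first enzyme of creatine synthesis. They were followed by 4933440M02Rik, Med21, Alas1 (the first enzyme of heme synthesis), Rgcc, Sec61b, Dmkn and Tfec, at 0.821 to 0.852. The members themselves gave 0.914 to 0.963, but each is part of the mean it was set against. Their values are therefore raised and cannot be ranked against those of other genes.

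In HSCs no member was called in any contrast, where 0.375% (vehicle against WT), 0.643% (IACS-70654 against vehicle) and 0.991% (IACS-70654 against WT) of all genes tested were called. Prtn3 had the smallest errors: its HSC levels were 748 and 683 CPM in WT, 1067 and 855 CPM in vehicle and 737 and 865 CPM in IACS-70654 libraries, and IACS-70654 against vehicle gave a log2 change of -0.36 ± 0.075 (SE), under the size limit. The vehicle and IACS-70654 ranges of Prtn3 overlapped. Prss57, the scarcest member, rested on 4 to 18 UMIs per library in HSCs.

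In MPPs some members were higher in tumor-bearing vehicle hosts than in WT, and lower again under the inhibitor. Both contrasts use the same vehicle libraries, so they are not independent. Erythroid progenitors, the background class, changed in the same directions for all 6 members. Their median log2 change was 0.588 in vehicle against WT and -0.332 in IACS-70654 against vehicle, beside 0.463 and -0.752 in MPPs. Ms4a3 in WT and IACS-70654 MPPs was also not far above the erythroid level given below. The part of this background in the MPP changes was not tested. In WT MPPs Ms4a3 was at 99.9 and 74.9 CPM, in vehicle MPPs at 207 and 157 CPM and in IACS-70654 MPPs at 100 and 89.1 CPM, so that the vehicle libraries stood above both other groups, which overlapped. Ms4a3 rose by 1.06 ± 0.086 (log2, SE) in vehicle against WT, with edgeR adjusted p = 6.1e-20, and fell by 1.02 ± 0.068 with IACS-70654 against vehicle, with adjusted p = 2.3e-27. Elane was at 301 and 241 CPM in WT, 568 and 413 CPM in vehicle and 374 and 273 CPM in IACS-70654 MPPs. It rose by 0.85 ± 0.071 with the tumor and fell by 0.66 ± 0.060 with the inhibitor. The latter call was lost without vehicle replicate 1 (log2 change -0.36) or without IACS-70654 replicate 2 (-0.46). DESeq2 made neither Elane call (adjusted p = 0.153 for the fall and 0.0762 for the rise). The DESeq2 errors were larger, at 0.286 for the fall and 0.288 for the rise. Elane in MPPs was also close to its background, since subtracting the erythroid level of each library left 68.4 and -5.60 CPM in WT, 194 and 124 CPM in vehicle and 130 and -50.2 CPM in IACS-70654 libraries.

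Prtn3 and Prss57 in MPPs were lowest under the inhibitor. Prtn3 in MPPs was at 1282 and 1164 CPM in WT, 1850 and 1576 CPM in vehicle and 1025 and 946 CPM in IACS-70654 libraries, the lowest of the 3 groups. Its change of -0.84 ± 0.036 against vehicle was called (adjusted p = 1.9e-44), and its 0.46 ± 0.038 in vehicle against WT passed on p but not on size. Prss57 was at 29.2 and 29.8 CPM in WT, 42.3 and 40.7 CPM in vehicle and 19.4 and 16.7 CPM in IACS-70654 MPPs. It fell by 1.23 ± 0.11 against vehicle and, alone among the members, by 0.76 ± 0.14 against WT. Prtn3 and Prss57 levels did not overlap between any 2 of the 3 groups, but how many of all genes separate so was not counted. Mpo (1551 and 1438, 1752 and 1446, and 1282 and 1218 CPM in the same order) and Ctsg (797 and 765, 994 and 861, and 782 and 750 CPM) differed from vehicle by -0.41 ± 0.036 and -0.33 ± 0.037, below the size limit.

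In MPPs, 2 of 6 members were called up in vehicle against WT, where 1.01% of 12097 genes were called, 4 of 6 were called down in IACS-70654 against vehicle, where 7.47% were called (4.17% down), and 1 of 6 was called down in IACS-70654 against WT, where 5.06% were called. The median log2 change of the 6 members under IACS-70654 against vehicle was -0.75, and that of all genes tested was 0.002. All 6 changes were negative also in lymphoid-primed, eosinophil and megakaryocyte progenitors of the c-Kit+ sort, with medians of -0.458, -0.616 and -0.205. In HSCs, the cluster between MPPs and GMPs, and late GMPs the signs were mixed. MPPs of the IACS-70654 libraries were shallower, with medians of 5132 and 5099.5 UMIs per cell against 7437 and 6605 in vehicle MPPs, and made up 28.6% and 28.4% of the c-Kit+ cells against 12.04% and 13.5%. The part of depth and cell share in these changes was not tested. The study itself had reported lower Prtn3 and Ms4a3 under IACS-70654 in common myeloid progenitors, so these calls are not an independent finding.

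The MPP class was made of 2 clusters, of which cluster 8 carried the cell cycle genes (534.6 CPM of Mki67 against 68.2 CPM in cluster 0). In the non-cycling cluster 0, Elane was at 174 and 173 CPM in WT, 211 and 205 CPM in vehicle and 228 and 185 CPM in IACS-70654 libraries, a log2 change of -0.02 ± 0.064 with the inhibitor. Ms4a3 in cluster 0 was at 62.1 and 74.2 CPM in vehicle and 67.6 and 57.2 CPM in IACS-70654 libraries (-0.09 ± 0.10). In the cycling cluster 8 both were called: Elane went from 861 and 693 CPM to 587 and 396 CPM (-0.70 ± 0.075) and Ms4a3 from 326 and 267 CPM to 147 and 134 CPM (-1.14 ± 0.082). The calls of Elane and Ms4a3 in vehicle against WT were likewise made in cluster 8 (0.80 and 1.03) and not in cluster 0 (0.23 and 0.23). In cluster 0, however, Elane lay below the erythroid level of the same library in all 6 libraries, and Ms4a3, at 54.0 to 74.2 CPM, was near the erythroid 46.8 to 83.6 CPM. Neither a change nor its absence can be read for these 2 genes in cluster 0. Prtn3 and Prss57 were called down by the inhibitor in both clusters, Prtn3 by -0.67 ± 0.037 and -0.80 ± 0.050 and Prss57 by -1.04 ± 0.17 and -1.22 ± 0.15 in clusters 0 and 8. Cluster 8 made up 38.7% and 27.2% of vehicle MPPs, 25.8% and 27.7% of IACS-70654 MPPs and 25.7% and 23.3% of WT MPPs. Whether the changes differ between the clusters was not tested.

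**Figure D2:**
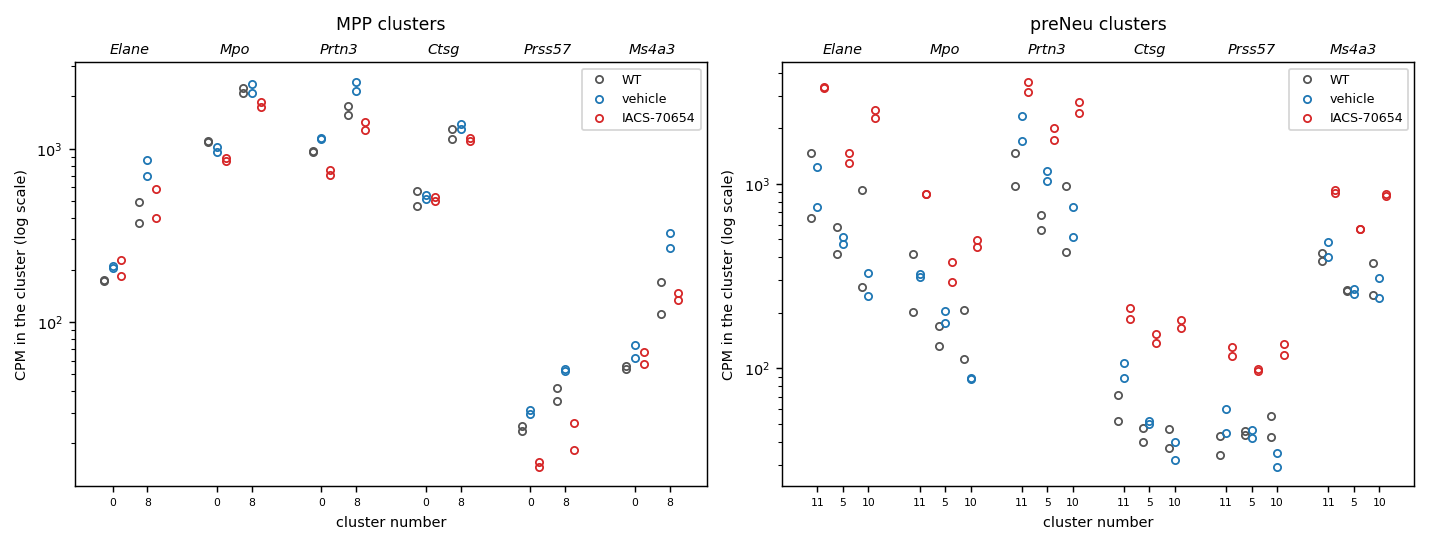
CPM of each gene (log axis) in the clusters that make up MPPs (left) and preNeu (right), 1 open circle per library. In MPP cluster 0 only the Prtn3 and Prss57 circles of IACS-70654 lie well below vehicle, and in each of the 3 preNeu clusters the IACS-70654 circles lie above both other groups for all 6 genes.

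Counted per cell rather than per UMI, MPPs with at least 3 UMIs of Prtn3 after thinning every cell to 3000 UMIs made up 53.4% and 51.0% of the class in the WT libraries, 60.8% and 61.4% of those given vehicle, and 35.0% and 35.1% after IACS-70654. The same share in erythroid progenitors, whose median depth was 9638.5 to 12660 UMIs, was 7.87% to 12.2%. For Mpo the MPP shares were 54.3% and 54.7%, 57.9% and 48.2%, and 40.8% and 41.1%, so that with this gene too the IACS-70654 libraries were the lowest. Without thinning, the Prtn3 shares were 83.4% and 80.8%, 84.5% and 86.7%, and 57.0% and 57.5%. For Elane the thinned MPP shares of 3.42% to 11.02% lay close to the 3.23% to 7.16% of erythroid progenitors and are read as background. With 2 libraries a group no exact permutation test of such shares can pass a threshold of 0.05, and none was run.

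In the cluster between MPPs and GMPs Prss57 alone was called under the inhibitor. Its levels were 77.4 and 69.7 CPM in WT, 115 and 110 CPM in vehicle and 73.7 and 79.4 CPM in IACS-70654 libraries, the IACS-70654 libraries falling in the range around WT. Prss57 rose by 0.56 ± 0.11 in vehicle against WT, with Ms4a3 (0.78 ± 0.055), and fell by 0.56 ± 0.078 under the inhibitor, so that 2 of 6 members were called up where 0.761% of genes were called and 1 of 6 down where 3.2% were called. The Prss57 calls rested on few libraries: the rise was lost without WT replicate 2 or vehicle replicate 1, and the fall without IACS-70654 replicate 1 (-0.49). Ms4a3 was at 395 and 464 CPM in WT, 765 and 741 CPM in vehicle and 620 and 598 CPM in IACS-70654 libraries, between the other groups. Elane was at 1953 and 2004, 2839 and 2593, and 2958 and 2963 CPM in the same order. Against WT it was the only member called under IACS-70654, up by 0.55 ± 0.035, where 2.24% of genes were called. The call was lost with the highest doublet scores left out (0.45) and with double clustering resolution (0.39).

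Late GMPs of the c-Kit+ sort showed the highest levels of the c-Kit+ stages and few calls. Elane was at 8615 and 8222 CPM in WT, 7541 and 7493 CPM in vehicle and 8742 and 8372 CPM in IACS-70654 libraries, so the vehicle libraries were the lowest, by 0.19 on the log2 scale against WT. For Prtn3 the vehicle libraries were instead the highest, at 8998 and 8533 CPM in WT, 11659 and 11418 CPM in vehicle and 10143 and 9911 CPM in IACS-70654 libraries, with 0.37 ± 0.024 in vehicle against WT. No member passed the size limit in vehicle against WT, where 1.23% of genes were called. Prss57, the only member called here, was at 247 and 256 CPM in WT, 272 and 272 CPM in vehicle and 187 and 183 CPM in IACS-70654 libraries. It fell by 0.62 ± 0.042 against vehicle (1 of 6 members, 6.84% of genes called) and by 0.53 ± 0.058 against WT (1 of 6 members, 4.12% of genes called). The call against WT was close to the size limit and was lost with total UMIs only (-0.44), no low-count filter (-0.49) or double clustering resolution (-0.43).

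ProNeu of the CD45+ sort are the matching stage without selection for c-Kit, and there Elane was higher under the inhibitor. It was at 8957 and 9815 CPM in WT, 7867 and 7658 CPM in vehicle and 11950 and 11720 CPM in IACS-70654 libraries. The 3 groups did not overlap, with the IACS-70654 libraries the highest, but how many of all genes separate so was not counted. The change of 0.58 ± 0.064 against vehicle (adjusted p = 1.1e-08) was the only member called, where 5.16% of genes were called. In vehicle against WT (1.36% of genes called) and in IACS-70654 against WT (5.97%) no member was called. Prss57, which was lower in late GMPs, was at 250 and 307 CPM in WT, 301 and 284 CPM in vehicle and 320 and 324 CPM in IACS-70654 proNeu, a log2 change of 0.11 ± 0.083 against vehicle. ProNeu took 7.26% and 7.54% of the CD45+ cells in IACS-70654 libraries, against 2.48% and 2.23% in vehicle and 2.31% and 2.87% in WT libraries.

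In preNeu, the proliferating precursors in which these genes are normally turned down, all 6 members were called up under IACS-70654. Elane stood at 430 and 796 CPM in WT, 575 and 447 CPM in vehicle and 1966 and 1862 CPM in IACS-70654 libraries, a rise of 1.67 ± 0.11 against vehicle (adjusted p = 1.0e-18). Ctsg went from 55.1 and 52.0 CPM in vehicle to 165 and 155 CPM (1.35 ± 0.068) and Prss57 from 45.8 and 39.0 CPM to 114 and 104 CPM (1.14 ± 0.075). Vehicle and WT overlapped for Elane and Prss57, and the IACS-70654 libraries lay above all 4 others for every member. The share of all genes that separate in this way was not counted. Mpo rose from 196 and 169 CPM to 468 and 426 CPM (1.06 ± 0.078), and Ms4a3 from 309 and 269 CPM to 703 and 685 CPM (1.03 ± 0.054). Prtn3 rose from 1236 and 989 CPM to 2336 and 2178 CPM (0.79 ± 0.075), a call that DESeq2 did not make (adjusted p = 0.0234, error 0.258). All 6 were called up against vehicle where 10.3% of 10780 genes were called (5.58% up), and all 6 against WT, by 1.13 (Ms4a3) to 1.69 (Ctsg), where 8.68% were called. Neutrophil cluster 7, with 1270 of its 1356 cells from IACS-70654 libraries, was left out of preNeu. It scored 0.57 on the preNeu and 0.474 on the immature marker list. Its Mki67 was 30.5 CPM, against 242.8 to 675.4 CPM in the preNeu clusters. It held 197 and 200 CPM of Prtn3 in IACS-70654 libraries, so counting it in would lower their preNeu levels. With its cells counted as preNeu the contrast was not tested.

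Prtn3 was also the one member called up in preNeu of vehicle against WT, from 608 and 866 CPM, by 0.73 ± 0.078, where 3.43% of genes were called. That call was lost without WT replicate 1 (0.48). The median log2 change of the 6 members under IACS-70654 against vehicle was 1.10, beside 0.007 for all genes tested. Each of the 3 clusters of the class showed the rise of all 6 members on its own. It was largest in cluster 10, where Elane went from 330 and 248 CPM in vehicle to 2285 and 2513 CPM (2.75 ± 0.18), against 1.29 ± 0.062 in cluster 5 and 1.54 ± 0.18 in cluster 11.

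The IACS-70654 libraries also held more proNeu, the class with the most Elane UMIs, so the background of the same library was set beside the preNeu levels. The level in preNeu minus that in B cells of the library was 352 and 658 CPM in WT, 479 and 171 CPM in vehicle and 1457 and 1757 CPM in IACS-70654 libraries for Elane. For Ms4a3 it was 257 and 279, 289 and 213, and 576 and 636 CPM. With B cells as the background, the IACS-70654 libraries stayed above the others for both. T or NK cells, of which each vehicle or IACS-70654 library held 21 to 33, gave another picture. They held 56.5 and 98.8 CPM of Elane in WT, 21.7 and 57.9 CPM in vehicle and 507 and 1568 CPM in IACS-70654 libraries, and 511.8 CPM of Ms4a3 in IACS-70654 replicate 2 against 10.8 to 34.3 CPM in the 5 other libraries. Set against these cells, preNeu of IACS-70654 replicate 2 did not stay above the WT and vehicle libraries for Elane, Prtn3 or Ms4a3, and those of replicate 1 did. Mpo, at 624 and 781 CPM in T or NK cells, and Ctsg, at 267 and 1056 CPM, were lower in preNeu than in these cells in both IACS-70654 libraries. Prss57 alone, at 6.85 and 43.1 CPM in these cells, kept both IACS-70654 libraries above the others, on 1 and 8 UMIs. For Ctsg the difference from B cells was -3.59 and 5.59 CPM in WT, 28.8 and -113 CPM in vehicle and 88.4 and 113 CPM in IACS-70654 libraries, so that Ctsg lay above B cells in both IACS-70654 libraries and in only some of the others. B cells were few in these libraries, with 47 and 101 cells under IACS-70654 against 156 and 178 in vehicle and 701 and 719 in WT.

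More preNeu reached 3 UMIs of Elane or Prtn3 under the inhibitor. After thinning to 1000 UMIs, preNeu with at least 3 UMIs of Elane made up 4.29% and 8.60% of the class in the WT libraries, 7.83% and 5.00% for vehicle, then 22.5% and 21.9% for the inhibitor, against 0 to 2.13% of B cells, whose median depth was 2999 to 4285 UMIs (preNeu: 11057 to 14394). For Prtn3 the shares were 5.73% and 8.37%, 14.2% and 11.2%, and 27.9% and 25.8%. The tenth of preNeu with the most Elane held 81.6% and 81.7% of its UMIs in WT, 74.8% and 77.6% for vehicle, but 54.1% and 56.4% for the inhibitor. Unthinned shares of cells with at least 3 UMIs of Elane were 17.5% and 21.4%, 27.1% and 23.5%, and 55.6% and 54.9%. Such shares also move with the mean level, so they do not separate more cells from more UMIs per cell. Shares in T or NK cells are not set beside them.

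**Figure D3:**
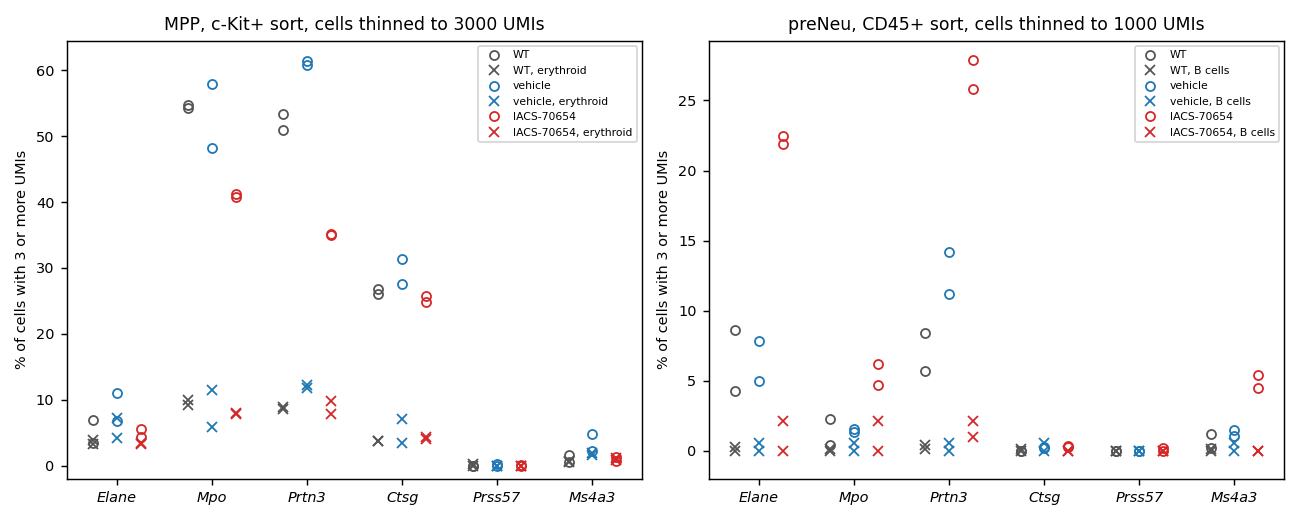
Percent of cells with 3 or more UMIs of each gene after thinning, in MPPs (left, 3000 UMIs per cell) and preNeu (right, 1000 UMIs per cell), 1 circle per library; crosses show the background class of the sort. Prtn3 and Mpo circles of IACS-70654 lie lowest in MPPs, and Elane and Prtn3 circles of IACS-70654 lie highest in preNeu.

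Beyond preNeu the members were near the level of B cells. Elane, Mpo and Prtn3 in immature neutrophils lay below the B cells of the same library in all 6 libraries, while in mature and Il1b-high neutrophils some members lay above them in some libraries. A neutrophil cluster numbered 7, with 549 and 721 cells in IACS-70654 and 32 and 30 cells in vehicle libraries, held 118 and 128 CPM of Ms4a3 against 61.5 and 50.8 CPM, and no member was called there, where 1.26% of genes were called (WT libraries had under 20 cells each and were left out). In immature neutrophils Ms4a3 was at 33.1 and 34.7 CPM in WT, 33.6 and 35.7 CPM in vehicle and 23.1 and 22.7 CPM in IACS-70654 libraries. It fell by 0.82 ± 0.088 against vehicle (1 of 6 members, 19.9% of genes called) and by 0.51 ± 0.10 against WT (1 of 6, 21.5% called), and the latter was lost without WT replicate 2 or IACS-70654 replicate 2. The cells came mostly from cluster 3 in IACS-70654 libraries and from clusters 4, 6 and 8 in the others, and B cells of the same sort held 19.4 to 127 CPM of Ms4a3. Within the clusters the IACS-70654 levels were less apart or turned about: 16.1 and 14.4 CPM against 17.7 and 15.1 CPM in vehicle in cluster 4, 18.9 and 21.3 CPM against 22.3 and 29.3 CPM in cluster 3, and 106 and 70.0 CPM against 53.7 and 62.1 CPM in cluster 6. These values rest on few cells in cluster 4 (83 and 106) and cluster 6 (56 and 46) under IACS-70654 and in cluster 3 (48 and 59) in vehicle libraries, and the change was not tested within clusters. In vehicle against WT no member was called in immature (6.4% of genes called) or mature neutrophils (9.72%), although in cluster 0 of the mature cells alone Elane (-0.51) and Mpo (-0.51) were.

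The class named mature neutrophils held 186 and 238 cells under IACS-70654 against 2128 and 2596 in vehicle. These numbers rest on the naming of cluster 3, with 2925 of its 3057 cells from IACS-70654 libraries, which scored 0.785 on the immature and 0.721 on the mature marker list and was led by stefin genes. The immature and mature contrasts under IACS-70654 rest on it too, and with its cells counted as mature neither was tested. Elane, Mpo and Prtn3 were called down there against WT, by 0.60 ± 0.13, 0.71 ± 0.13 and 0.69 ± 0.12 (3 of 6 members, 14.9% of genes called), and none against vehicle (10.5% called). The Elane call was lost without IACS-70654 replicate 1 and the Mpo call without IACS-70654 replicate 2. The Elane levels were 118 and 115 CPM in WT, 86.6 and 82.5 CPM in vehicle and 69.5 and 90.3 CPM in IACS-70654 libraries. The WT replicate 1 level lay above the 77.6 CPM of the B cells of that library, and the other 5 lay below theirs. The WT cells sat mostly in cluster 0 (84.6% and 86.4% of the class) and the IACS-70654 cells mostly in cluster 1 (76.9% and 78.2%). Within the clusters the changes of Elane (-0.24 and -0.69) and Mpo (-0.83 and -0.60) were not called, and Prtn3 was called in cluster 1 (-0.84) and not in cluster 0 (-0.12). In the Il1b-high neutrophils, Ms4a3 fell by 0.68 ± 0.19 against vehicle, from 52.9 and 47.4 CPM to 28.4 and 30.6 CPM (1 of 6 members, 16% of genes called), a call lost when any 1 vehicle or IACS-70654 library was left out.

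**Figure D4:**
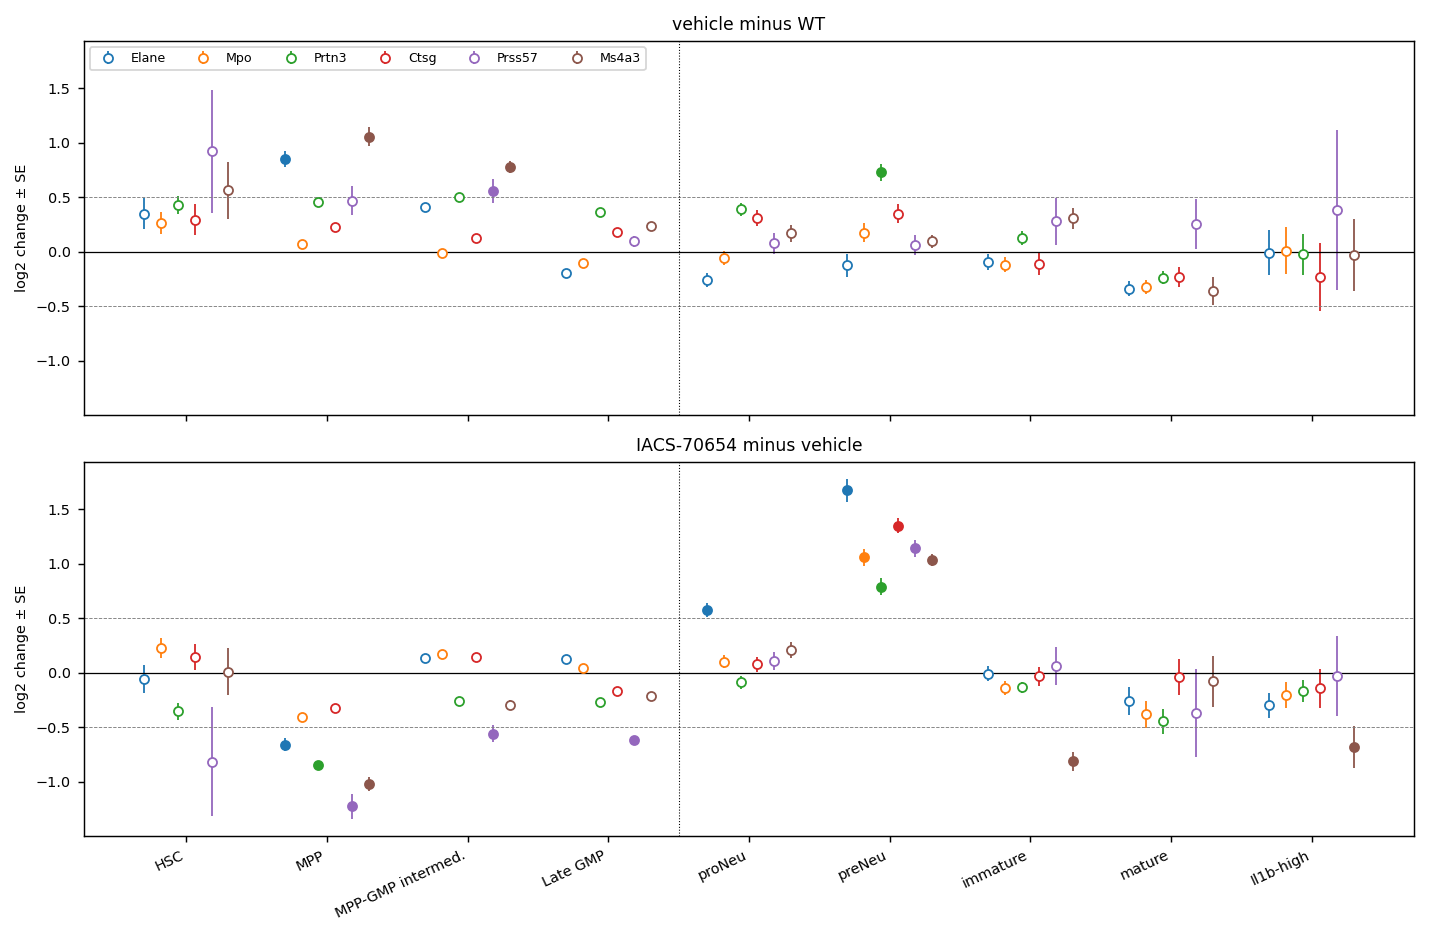
Log2 change with its SE for each gene by stage, vehicle minus WT (top) and IACS-70654 minus vehicle (bottom); filled circles were called and dashed lines mark the size limit of 0.5. Under IACS-70654, 4 genes are called down in MPPs and all 6 are called up in preNeu.

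The opposite directions in MPPs and preNeu were tested as a difference of the 2 changes in 1 fit. MPPs came from the c-Kit+ sort and preNeu from the CD45+ sort, so stage and sort cannot be told apart in this test. In the HSC class of the CD45+ sort the median log2 change under IACS-70654 against vehicle was 0.146, with 4 members positive and 2 negative. That class had 35 and 40 cells in vehicle and 75 and 82 cells in IACS-70654 libraries. The change under IACS-70654 against vehicle was lower in MPPs than in preNeu for all 6 members, by 2.31 ± 0.12 (log2) for Elane, 2.34 ± 0.14 for Prss57, 2.03 ± 0.090 for Ms4a3, 1.65 ± 0.087 for Ctsg, 1.61 ± 0.085 for Prtn3 and 1.44 ± 0.088 for Mpo, where 8.77% of genes were called (5.28% in this direction). The largest adjusted p of the 6 was 3.1e-33. Elane, Prtn3, Prss57 and Ms4a3 were called in both classes, in opposite directions, and Mpo and Ctsg were called in preNeu only. All 6 were also lower in HSCs than in preNeu (2.22% of genes called), in the MPP-GMP intermediate (4.79%) and in late GMPs (7.88%), the last by 1.03 (Mpo) to 1.77 (Prss57). In HSCs, however, Elane, Ms4a3, Ctsg and Mpo were near the background and Prss57 rested on few UMIs. For these genes the HSC difference cannot be read as a change in HSCs.

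Within the c-Kit+ sort, the change in MPPs lay below that in the intermediate for Elane, Mpo, Prtn3, Prss57 and Ms4a3, by 0.59 (Mpo) to 0.81 (Elane), where 0.691% of genes were called. Without vehicle replicate 1 only that of Elane was still called. The change in MPPs lay below that in HSCs for Mpo (by 0.65) and Prtn3 (by 0.51), where 0.193% were called. Mpo in HSCs was near the background, so its change there cannot be read. Between the intermediate and late GMPs no member differed (0.906% called). Within the CD45+ sort, the rise in preNeu exceeded the change in proNeu for all 6, by 0.79 (Ms4a3) to 1.24 (Ctsg), where 2.46% were called. It exceeded that in immature neutrophils for all 6, by 0.89 (Prtn3) to 1.82 (Ms4a3), where 9.86% were called. Immature neutrophils held Elane, Mpo and Prtn3 below the level of B cells, and came from different clusters in the groups. That second difference is therefore not read as a change in immature neutrophils. Late GMPs and proNeu, the nearest stages of the 2 sorts, differed for Prss57 alone, by 0.76 ± 0.086 with late GMPs the lower (0.647% called).

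Summed over all cells of a sort, the members also follow the makeup of the marrow. In the CD45+ sort Elane was at 739 and 1010 CPM in WT, 682 and 580 CPM in vehicle and 2527 and 2517 CPM in IACS-70654 libraries. All 6 members rose against vehicle, by 1.06 (Prtn3) to 1.77 (Elane), where 19.7% of genes were called, and against WT, where 16.1% were called, and none was called in vehicle against WT (24.4% called). ProNeu supplied 71.9% and 72.2% of all Elane UMIs in IACS-70654 libraries, against 59.8% and 58.6% in vehicle and 65.4% and 64.3% in WT. PreNeu supplied 11.7% and 10.9%, 19.8% and 19.4%, and 11.9% and 15.2% of Elane in the same order. For Ms4a3 the preNeu part was larger, at 19.8% and 19.4%, 34.1% and 36.1%, and 32.6% and 25.6%.

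In the c-Kit+ sort the sums rose with the tumor. Elane was at 1409 and 1272 CPM in WT, 2800 and 2770 CPM in vehicle and 2608 and 2565 CPM in IACS-70654 libraries. All 6 members were called up in vehicle against WT, by 0.79 (Mpo) to 1.41 (Ms4a3), where 9.76% of genes were called. Under IACS-70654 against vehicle, Prtn3 (-0.53 ± 0.023) and Prss57 (-0.76 ± 0.030) were called down, where 10.5% were called, and against WT all but Prss57 (0.38 ± 0.034) were called up, where 10.8% were called. Late GMPs supplied 53.5% and 52.2% of Elane UMIs in vehicle and 52.5% and 52.6% under IACS-70654, but the intermediate supplied 5.58% and 6.07% in vehicle and 16.0% and 16.6% under IACS-70654. Monocyte or dendritic progenitors supplied 33.2% and 35.4% in vehicle and 24.3% and 24.2% under IACS-70654.

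**Figure D5:**
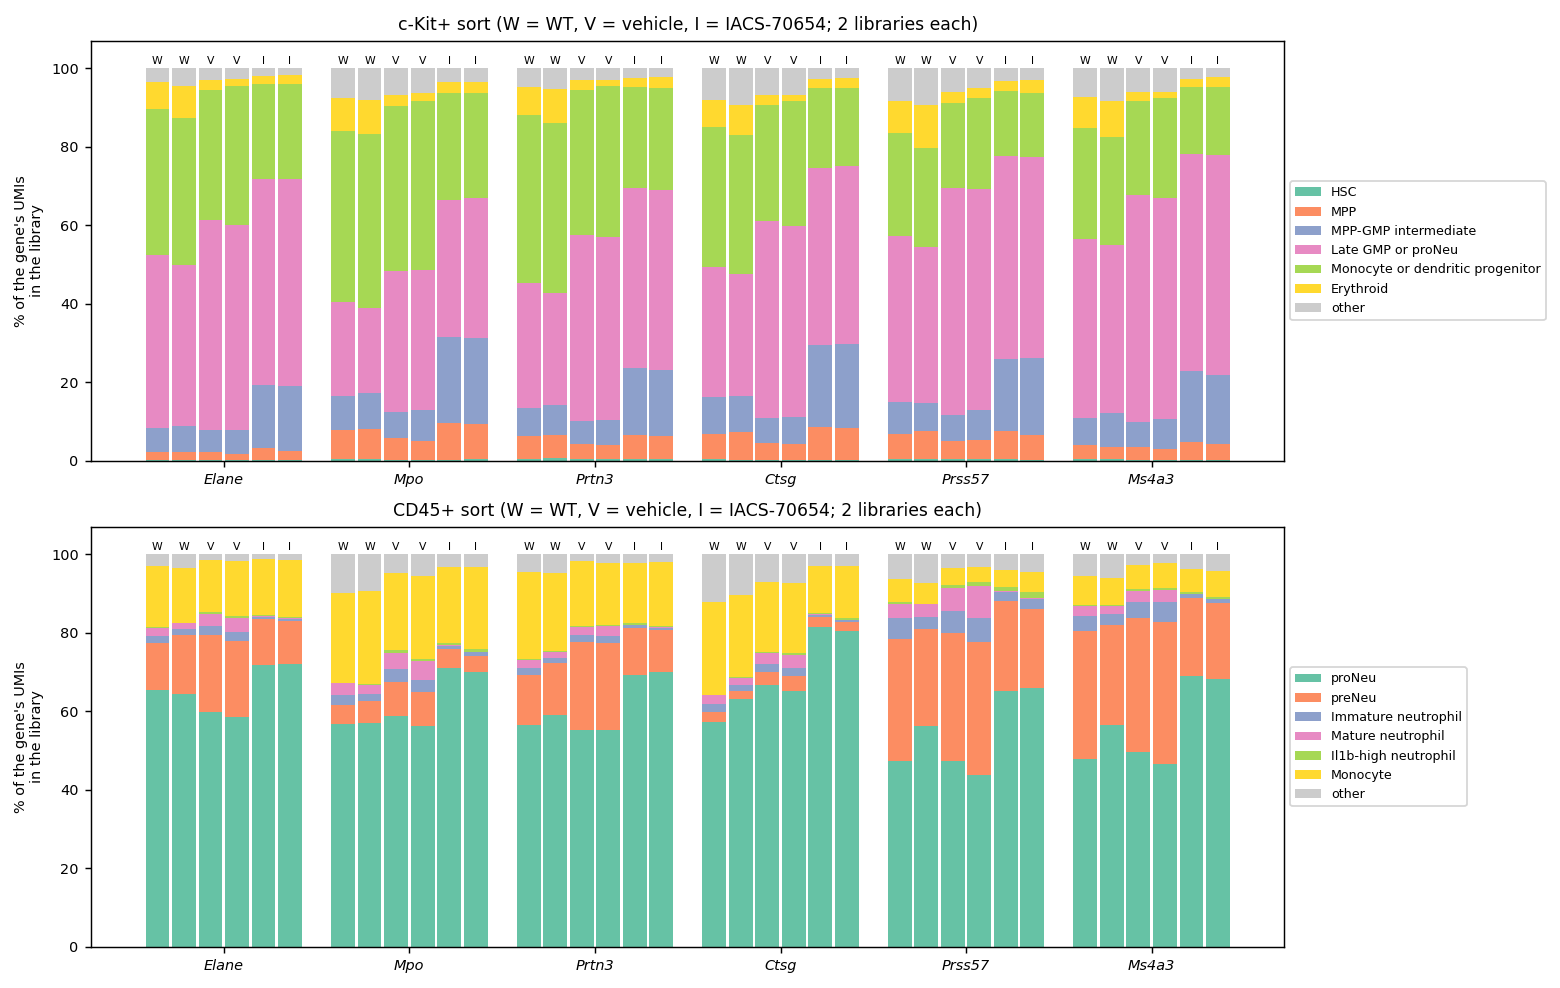
Percent of each gene's UMIs in a library that came from each cell class, 1 bar per library, for the c-Kit+ sort (top) and the CD45+ sort (bottom). ProNeu take a larger part of all 6 genes in the CD45+ sort under IACS-70654, and preNeu a smaller one than in vehicle.

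The monocyte lineage also carries these transcripts early on. In CD45+ monocytes Elane was at 769 and 870 CPM in WT, 856 and 902 CPM in vehicle and 2089 and 2079 CPM in IACS-70654 libraries, and rose by 1.26 ± 0.041 against vehicle. Mpo (0.66), Prss57 (0.69) and Ms4a3 (0.58) were called up with it, 4 of 6 members where 5.81% of genes were called. In B cells no member was called in this contrast, but 5 of 6 changed upward, with a median log2 change of 0.60. In T or NK cells the median over the 4 members tested was 4.69. The part of such background in the monocyte values was not tested. Their c-Kit+ progenitors held 2884 and 2753 CPM of Elane in WT, 3263 and 3333 CPM in vehicle and 4546 and 4409 CPM in IACS-70654 libraries. No member was called there in IACS-70654 against vehicle, since the 0.42 of Elane was under the size limit (5.87% of genes called). Against WT, Elane (0.61) and Ms4a3 (0.59) were called up (4.7% called), and Ms4a3 (0.52) also in vehicle against WT (1.17% called).

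Basophil or mast cell progenitors of the c-Kit+ sort had lower levels of these transcripts under the inhibitor, in a class whose makeup also changed. Ctsg, which mast cells also use, was at 1175 and 1232 CPM in WT, 1769 and 1812 CPM in vehicle and 719 and 702 CPM in IACS-70654 libraries of the c-Kit+ sort. It rose by 0.58 ± 0.049 with the tumor and fell by 1.44 ± 0.058 with the inhibitor. Ms4a3 went from 163 and 160 CPM in WT to 315 and 331 CPM in vehicle and 120 and 89.8 CPM under IACS-70654 (1.00 ± 0.084 and -1.67 ± 0.11). In this class 4 of 6 members (Elane, Prtn3, Ctsg and Ms4a3) were called up in vehicle against WT, where 1.24% of genes were called, and 5 of 6 (all but Elane) down in IACS-70654 against vehicle, where 9.44% were called.

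The class held 2 clusters in unequal parts. Cluster 10, led by Ms4a2, Prss34 and Mcpt8, the last 2 being basophil proteases, made up 61.1% and 58.5% of the class in WT libraries, 76.9% and 72.3% for vehicle, but 31.0% and 27.8% for the inhibitor, and the rest was cluster 15, with far less Ctsg. Within cluster 10, Ctsg was at 1467 and 1590 CPM in WT, 1982 and 2123 CPM in vehicle and 1245 and 1027 CPM in IACS-70654 libraries, a smaller fall of 0.88 ± 0.066. Mpo (-0.64), Prtn3 (-0.88), Prss57 (-1.73) and Ms4a3 (-1.27) were also called down there against vehicle, and none of the 6 against WT. The Prss57 value rests on 6 and 3 UMIs in the 81 and 40 cells of the IACS-70654 libraries. In cluster 15, Ctsg changed by -0.34 ± 0.14, Ms4a3 by -0.72 ± 0.23 and Mpo by 0.19 ± 0.11, none of them called, and Elane alone was called, at -0.54 ± 0.14. In vehicle against WT, Elane, Prtn3 and Ms4a3 were called up in cluster 10 and no member in cluster 15, and Ctsg, at 0.42 in cluster 10, was under the size limit.

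In the CD45+ sort, basophils held 257 and 130 CPM of Ms4a3 in vehicle and 27.0 and 31.1 CPM in IACS-70654 libraries, on 31 to 50 cells each. Mpo (-1.74), Ctsg (-1.87) and Ms4a3 (-2.76) were called down there, 3 of the 5 members tested, where 1.83% of genes were called. Over the whole class, the change in c-Kit+ basophil progenitors lay below that in MPPs for Mpo (by 0.53), Ctsg (by 1.15) and Ms4a3 (by 0.68), where 1.74% were called. This difference includes the shift between clusters 10 and 15, and it was not tested within them. Erythroid progenitors, the background class, themselves showed 5 of 6 members called up in vehicle against WT, by 0.51 (Elane) to 0.65 (Ms4a3), where 1.83% of genes were called. These cells lay in 4 clusters, of which cluster 6 held 1071 cells in WT libraries and 346 in vehicle libraries and cluster 7 held 567 and 446. The sign turned for Elane, Prtn3, Prss57 and Ms4a3 once the cells with the highest doublet scores were left out.

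A set of 22 companion genes, in 3 lists, was set beside the members. Cst7, a cystatin that inhibits the cathepsin that activates these proteases, was called down by IACS-70654 against vehicle in MPPs (-1.25), the intermediate (-1.40), late GMPs (-1.64), proNeu (-1.95) and preNeu (-1.42). Cd63, a membrane protein of azurophil granules, was called down in HSCs (-0.65), MPPs (-0.67), the intermediate (-0.62), late GMPs (-0.95), proNeu (-0.87), immature (-1.62), mature (-1.40) and Il1b-high neutrophils (-1.50), but not in preNeu (-0.34). Ctsc, the activating cathepsin C itself, rose in preNeu (1.28) and in immature neutrophils (1.81). Of the 8 processing and packing genes, 4 were called down in MPPs, where 4.17% of genes were called down, and none up, and in preNeu, where 5.58% were called up, 2 were called up (Ctsc and Canx, a chaperone, 0.54) and 1 down.

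Of the other granule contents, 6 of 7 could be tested. Lyz2, lysozyme, fell in MPPs (-1.03) and in preNeu (-0.81) and rose in late GMPs (0.90), so that it did not follow the members in preNeu. In vehicle libraries its level was 9808 and 9852 CPM in preNeu. It was only 99.8 and 104 CPM in MPPs and 28.7 and 38.6 CPM in late GMPs. These low c-Kit+ levels were not set against a background class, so the Lyz2 changes there are not read as changes in expression. Of the 7 transcription factors of granulocyte progenitors, Cebpe, which acts at the promyelocyte stage, was the only one called in MPPs, at -1.38 ± 0.14, where 7.47% of all genes were called, and Gfi1, a repressor of the same stage, the only one in preNeu, at 0.70 ± 0.095, where 10.3% were called. The share of 1 in 7 is near these shares. In vehicle against WT the same 2 factors were called with the opposite sign, Cebpe in MPPs at 0.94 (1.01% of genes called) and Gfi1 in preNeu at -0.72 (3.43%), and these contrasts share the vehicle libraries. Under IACS-70654 against vehicle none of the 7 was called in the intermediate, late GMPs or proNeu, where 3.2%, 6.84% and 5.16% of genes were called.

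On chromosome 10 the genes around the 3 proteases were not all called with them. In MPPs, where 7.47% of genes were called, none of the neighbours was called under IACS-70654 against vehicle, with Palm at -0.37 and Plppr3 at -0.33. In preNeu, where 10.3% of genes were called, Plppr3 (1.19) and Palm (0.51) were called up. Ptbp1, which lies between them, also changed upward, by 0.42, and R3hdm4, beyond Elane, by -0.39, both under the size limit. Values of the other neighbours are not given. Plppr3 is annotated on the opposite strand across the outermost GENCODE start of Prtn3, which lies upstream of the start whose window is shown, and Fstl3 overlaps the end of Prss57, so that reads in these stretches may be hard to assign.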

How the data were processed

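Single cells of 12 marrow libraries were analysed, and 4 further samples of the series were not used here. The authors counted UMIs per gene with Cell Ranger (multi 7.2.0 per the file headers) on mm10 and deposited filtered matrices of raw counts, demultiplexed by CellPlex tags. The submitters' notes also name Seurat. Cells with 200 to 6000 genes and at most 10% mitochondrial UMIs were kept, clustered per sort with scanpy 1.11.5 and leidenalg 0.10.2 (2000 variable genes without the 6 members, 30 components, 20 neighbours, resolution 1, and 0.8 for neutrophils clustered again) and named from marker lists. A lead of 0.5 in score over the next list (for best scores under 1) was asked of other clusters and not of neutrophils clustered again. Doublets were scored and not removed, since the caller marked 0 to 1.66% of cells. UMIs were summed per library and class of at least 20 cells. They were tested with edgeR 4.0.16 (filterByExpr, TMM, quasi-likelihood F test, 6 libraries of a sort, no covariate, Benjamini-Hochberg over all genes), with the SE taken from the F statistic. For the calls that DESeq2 did not make in MPPs and preNeu, its errors were larger. The printed SEs and p-values may thus understate the spread between libraries. Differences of changes were contrasts in 1 fit over the classes compared. Libraries of the 2 sorts entered such fits as separate samples. Within a sort, 2 classes summed from the same library were separate samples too. With a block by library, 45 of these differences stayed the same and 1 became weaker.

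On simulated counts with 200 changed genes, edgeR recovered 87% of log2 changes of 1 and 61% of those of 0.75 in preNeu (10701 genes, 1 false call), and 93% and 57% in MPPs (12061 genes, 3 false calls). DESeq2 recovered 65% and 35% in preNeu and 70% and 38% in MPPs. For the difference between MPPs and preNeu, edgeR recovered 50% of log2 differences of 1 (12942 genes, 1 false call). The simulation gave every gene the same fixed dispersion. Its recovery and false calls therefore do not carry over to genes whose replicates differ more, such as Elane. The alternatives were DESeq2 1.42.0 with its size factors, total UMI scaling, no low-count filter, other clustering and cell shares, a replicate block and leaving out each library. Replicates differed beyond sampling noise (chi-square per gene 1.785 to 4.392), and no cell barcodes were shared within a sort. Median depth per kept cell was 4113 to 6596.5 UMIs in the CD45+ sort and 6712 to 9512 in the c-Kit+ sort. The share of cells, counting error only, was taken at 3 or more UMIs after thinning. Promoter windows came from RefSeq and gene positions from GENCODE M21. The 6 members were named in the classes described, and not in every class tested. Of the companions, those called with the largest change were named (at most 3 up and 3 down per class). Named too were neighbours of the chromosome 10 genes and the 10 genes most like the mean of the members (log2 of CPM plus 10, at least 50 CPM somewhere). The members and lists were chosen with earlier results of these data known.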

Additional observations from a re-analysis of the deposited data

Results flagged for a closer look

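For all 6 genes, the change under IACS-70654 against vehicle differed between MPPs and preNeu in a test of the difference itself (edgeR, adjusted over all genes). MPPs came from the c-Kit+ sort and preNeu from the CD45+ sort, so stage and sort cannot be told apart. The change in MPPs minus that in preNeu, on the log2 scale, was -2.31 for Elane, -1.44 for Mpo, -1.61 for Prtn3, -1.65 for Ctsg, -2.34 for Prss57 and -2.03 for Ms4a3. The groups of cells differed also in 2 comparisons added after seeing the data. Late GMPs minus proNeu gave -0.76 for Prss57, and c-Kit+ basophil or mast cell progenitors minus MPPs gave -0.53 for Mpo, -1.15 for Ctsg and -0.68 for Ms4a3. The basophil class held different parts of its 2 clusters in the 2 groups, and the difference was not tested within them.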

How the results depend on the processing

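All alternatives kept all 6 members up in preNeu under IACS-70654 against vehicle, except DESeq2 for Prtn3. Leaving out 1 library gave 6 to 6 there, 6 to 6 for the MPP against preNeu difference and 3 to 5 for the 4 members called down in MPPs (2 in cluster 0 alone). Over the 4 c-Kit+ stages, the 4 calls up in vehicle against WT ranged from 3 to 7 with a library left out (7 without vehicle replicate 2). The 6 calls down under IACS-70654 against vehicle ranged from 5 to 7. Against WT the single call up ranged from 1 to 3, and was 2 with DESeq2, 0 with the highest doublet scores left out and 3 with no low-count filter or with total UMIs only. The 2 calls down became 1 with double clustering resolution, no filter or total UMIs only. Over the 5 CD45+ stages, the single call up in vehicle against WT ranged from 0 (without WT replicate 1) to 3 (without WT replicate 2) and was 0 with DESeq2, and calls down ranged from 0 to 1. The 2 calls down under IACS-70654 against vehicle ranged from 1 to 2, and were 1 with DESeq2, double resolution or the highest doublet scores left out. Against WT the 4 calls down ranged from 2 (without IACS-70654 replicate 2) to 4. The mean share of cells over the 6 genes (percentage points, IACS-70654 minus vehicle) was -8.15 in MPPs, -5.81 at 1 UMI and -11.8 without thinning, and 6.3 in preNeu, 14.8 at 1 UMI, 22.8 without thinning and 17.8 at 1 UMI without thinning. Erythroid progenitors in vehicle against WT turned to -0.17 (Elane), -0.0253 (Prtn3), -0.15 (Prss57) and -0.19 (Ms4a3) with the highest doublet scores left out, and Mpo of c-Kit+ basophil progenitors under IACS-70654 against vehicle to 0.19 in cluster 15 alone. The cause was not tested for any of these.

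Same-numbered libraries did not deviate together (correlations -0.082 to 0.017), so the numbers do not pair them. A fit with the replicate block left the 4 calls up of c-Kit+ vehicle against WT and the 6 calls down of IACS-70654 against vehicle at 4 and 6. An alternative without called doublets was not run, because the caller marked almost none, and leaving out the 5% highest scores was chosen after seeing the data, as were single clusters and the last 2 differences of changes. Few UMIs limit Prss57 in HSCs, and the level of B cells limits the members in immature and mature neutrophils.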

Other observations

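Plasmacytoid dendritic cells of the CD45+ sort held 184 and 131 CPM of Mpo in WT, 210 and 156 CPM in vehicle and 382 and 285 CPM in IACS-70654 libraries. Mpo was called up there under IACS-70654 against vehicle, by 0.85 ± 0.17 (log2, SE; edgeR adjusted p = 0.0020), where 3.85% of genes were called. B cells of the same libraries held Mpo as well, and the part of that background in this value was not tested.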
